A study of Mus musculus with 12 samples.

Results

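CpG-dense DNA that lies far from any gene start was described here by its methylation in 2 lines of immortalized mouse embryonic fibroblasts (iMEFs). The autosomes of the mm10 genome were divided into fixed bins of 500 bp, and a bin was kept as CpG-dense when at least 15 of its cytosines were listed in all 12 libraries. Of 6169 CpG-dense windows, 5760 had their centre within 5 kb of an annotated gene start and 409 lay farther away. These 409 windows are the subject of the report, among 73824 windows that held at least 3 shared cytosines. Inside the span of an annotated gene lay 311 of them, 298 in protein-coding genes and 13 in long noncoding RNA genes, and 98 lay outside any gene. Distance to the nearest gene start ranged from 5.05 to 272 kb with a median of 11.9 kb, and a window held a median of 18 shared cytosines, between 15 and 54. No measured methylation value entered this rule, but the rule was chosen with earlier results of these data known.

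Reduced representation bisulfite sequencing (RRBS), which reads cytosine methylation in CpG-rich restriction fragments, was applied to genomic DNA of an experimental and a control line, with 1 library per line on day 0 and after 5, 9, 12, 16 and 20 days of doxycycline. The experimental line had the genotype R26M2rtTA/+;TetOcre;Sdhcfl/fl and the control line R26M2rtTA/+;TetOcre;Sdhcfl/wt. In both, doxycycline at 1 microgram/mL switches on Cre recombinase through the rtTA transactivator, and Cre removes floxed Sdhc sequence, so that the experimental line loses both copies of this succinate dehydrogenase subunit gene and the control line keeps an intact one. The lines were derived from mouse embryos and immortalized with SV40 virus. Each genotype was represented by 1 iMEF line, so genotype and any other difference between the lines cannot be told apart. The control group held 6 libraries (days 0 to 20) and the experimental group 5 libraries (days 5 to 20), with experimental day 0 kept apart as a library not yet treated. Libraries of a group are time points of 1 line and not separate cultures or animals, so each SD and p-value below covers the spread between time points of that line. Excision of Sdhc is not read out by these values.

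Libraries listed between 932307 and 1716381 cytosines, and the smallest was control day 12. In control day 12, 86.9% of cytosines were at exactly 0 or 100% methylated, against 61.6% to 77.6% in the other libraries. Read depth per cytosine is unknown because only percent values were given, so no interval can be set on a single value.

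Methylation of CpG-dense DNA is known chiefly from CpG islands at promoters, which usually stay unmethylated whether or not the gene is active. CpG-dense DNA inside or between genes follows this rule less strictly: some such islands act as alternative or enhancer-linked starts and stay open, while others lie in transcribed gene bodies, where de novo methylation accompanies transcription. Removal of methyl groups begins with the TET dioxygenases, which use 2-oxoglutarate and are inhibited by succinate, the metabolite that builds up when succinate dehydrogenase is lost.

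Windows away from gene starts were methylated to every degree, and those inside genes were more methylated than those outside. A window's level is given as a beta value, the mean methylated fraction of its cytosines, from 0 to 1. Over the 6 control libraries, the median window had a beta value of 0.319 inside genes and 0.106 outside genes, against 0.00659 for CpG-dense windows within 5 kb of a gene start and 0.631 for all windows. Inside genes, 140 of 311 windows (45.0%) had a control mean below 0.2, 68 (21.9%) lay between 0.2 and 0.8, and 103 (33.1%) were above 0.8. Outside genes, 62 of 98 windows (63.3%) were below 0.2, 28 (28.6%) lay between, and 8 (8.16%) were above 0.8. Near gene starts, by comparison, 93.0% of the CpG-dense windows were below 0.2 and 1.18% were above 0.8.

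**Figure D1:**
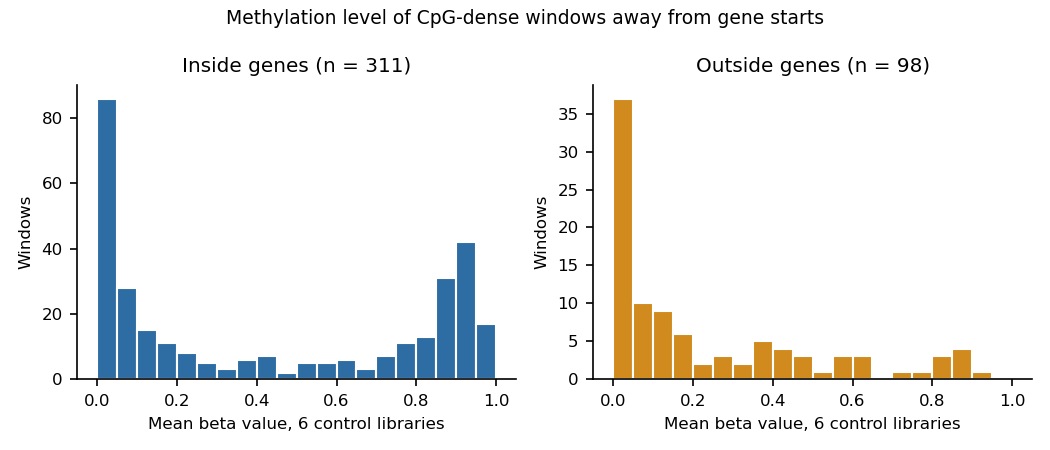
Distribution of the control mean beta value (horizontal axis, no unit, mean of 6 control libraries, bins of 0.05) over the 311 windows inside genes and the 98 windows outside genes. The vertical axes count windows. Inside genes the windows pile up at both ends of the scale, with 140 below 0.2 and 103 above 0.8, while outside genes 62 are below 0.2 and only 8 are above 0.8.

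The gap between windows inside and outside genes was present in 12 of 12 libraries. The mean inside minus the mean outside ranged from 0.185 in experimental day 9 to 0.208 in control day 12. Most windows also stayed on their side of these limits over both lines and all days. Below 0.2 in all 12 libraries were 160 of the 409 windows (112 inside and 48 outside genes), above 0.8 in all 12 were 76 (74 inside and 2 outside), between 0.2 and 0.8 in all 12 were 34 (20 inside and 14 outside), and the other 139 crossed a limit in at least 1 library.

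Windows inside genes differed by where they lay along the host. For 296 of the 311 windows the strand of the host gene was known, and the gene was divided into 4 equal parts in the direction of transcription. Of 35 windows in part 1, next to the start, 60% had a control mean below 0.2 and 17.1% a mean above 0.8. The share below 0.2 was 63.5% of 52 windows in part 2, 37.8% of 74 in part 3 and 34.1% of 135 in part 4, and the share above 0.8 was 19.2%, 32.4% and 45.9%. The median control beta value went from 0.0249 in part 1 and 0.0572 in part 2 to 0.509 in part 3 and 0.704 in part 4. Every window lies more than 5 kb from a gene start, so only long genes can have a window in part 1. The 4 parts therefore do not hold the same genes, and the shares do not trace a course along single genes. Windows of the same host gene are not independent, since 42 of the 265 host genes held at least 2 windows, and no test was made over windows.

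**Figure D2:**
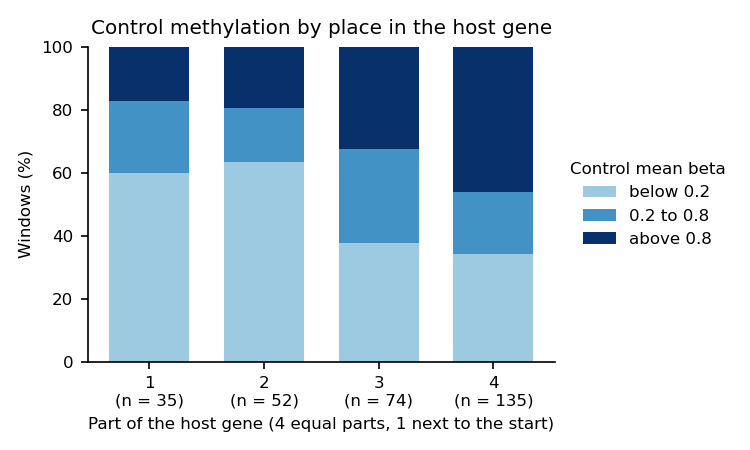
Share of windows (vertical axis, percent) with a control mean beta value below 0.2, from 0.2 to 0.8 or above 0.8, by part of the host gene, from 1 to 4 in the direction of transcription (horizontal axis, with the number of windows). Windows above 0.8 take 17.1% of part 1 and 45.9% of part 4, and windows below 0.2 take 60% of part 1 and 34.1% of part 4.

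No steady change with distance to the nearest gene start was seen. Inside genes, the share below 0.2 was 44.4% at 5 to 10 kb (133 windows), 38.7% at 10 to 20 kb (75 windows), 50.6% at 20 to 50 kb (77 windows) and 50% beyond (26 windows). Outside genes it was 60% of 45, 76% of 25, 52.4% of 21 and 71.4% of 7 windows at the same distances. The 53 windows just outside the 5 kb limit, at 5 to 6 kb, were below 0.2 in 49.1%, and the 52 CpG-dense windows just within it, at 4 to 5 kb, in 48.1%.

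Windows with more shared cytosines were more often unmethylated. Inside genes, 34.4% of the 195 windows with 15 to 19 cytosines had a control mean below 0.2, against 57.6% of the 66 with 20 to 24 and 70% of the 50 with 25 to 54. Outside genes the shares were 58.1% of 62, 62.5% of 16 and 80% of 20 windows. At the edge of the choice, the 64 windows with exactly 15 cytosines had a median control beta value of 0.622, and the 97 windows with 14, which were not kept, had 0.616.

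The 409 windows fell into 367 stretches of windows no more than 1000 bp apart. Only 39 stretches held at least 2 windows (81 windows in all), and the longest held 3. Within these 39 stretches the control means differed by a median of 0.0219.

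Of the 34 windows that stayed between 0.2 and 0.8 in all 12 libraries, the steadiest was in Cdk8, which encodes a kinase of the Mediator complex (chr5:146261001-146261500). This window had 0.425 ± 0.0181 (SD, n = 6) in the control line and 0.413 ± 0.0129 (SD, n = 5) in the experimental line, and its 12 values spanned 0.0498. Next was a window outside genes whose nearest gene start is that of Phb (prohibitin), with 0.381 ± 0.0244 (SD, n = 6) and 0.366 ± 0.0409 (SD, n = 5). A window in Gata4, a transcription factor gene of heart and gut development, held 0.647 ± 0.0410 (SD, n = 6) and 0.656 ± 0.0890 (SD, n = 5). Across the cytosines of a window, each averaged over the 12 libraries, the SD was 0.412 in Cdk8, 0.252 near Phb and 0.181 in Gata4. The steady Cdk8 mean thus covers cytosines of very different levels. The Cdk8 and Phb windows were picked for the narrowest ranges and the Gata4 window, with a wider range, as a gene of known role, all after the values were seen, and their levels are a description.

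The comparison of the lines asked where methylation differed between Sdhc-loss and control cells. Mean methylation over the windows differed little. Inside genes the library mean was 0.435 ± 0.00440 (SD, n = 6, range 0.430 to 0.441) in the control line and 0.440 ± 0.00416 (SD, n = 5, range 0.433 to 0.444) in the experimental line. Outside genes it was 0.234 ± 0.00749 (SD, n = 6, range 0.222 to 0.240) and 0.247 ± 0.00957 (SD, n = 5, range 0.232 to 0.258). The ranges of the lines overlapped both inside and outside genes, and the experimental mean was the higher on 4 of the 5 shared days after day 0 in each class, with day 16 the exception. Over all 409 windows the mean difference (experimental minus control) was 0.00714, with 0.00510 inside and 0.0136 outside genes, against 0.0118 over the 73824 windows of the genome. At day 0 the experimental means were 0.442 inside and 0.244 outside genes, 0.00381 and 0.00424 above control day 0.

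**Figure D3:**
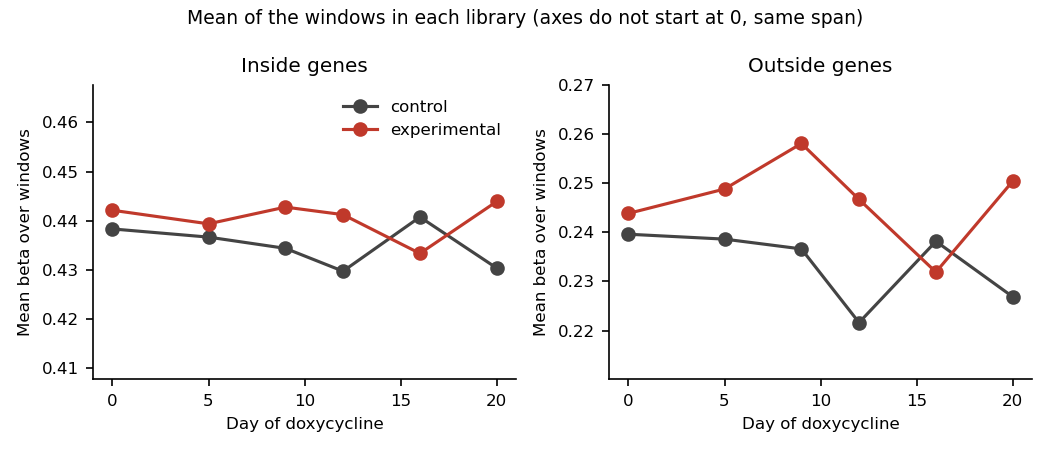
Mean beta value over the 311 windows inside genes and the 98 outside genes (vertical axes, no unit, not starting at 0) in each library by day of doxycycline (horizontal axis), for the control and experimental lines. Each point is 1 library. The experimental line is above the control line on each day except day 16.

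Against this small shift of the mean, 15 windows passed the test between the lines, 11 higher and 4 lower in the experimental line. The test was limma's moderated test on M-values, log2 ratios of the methylated to the unmethylated fraction, with Benjamini-Hochberg adjustment over 73345 windows and a threshold of 0.05. The 15 windows were 3.67% of the 409, while 2.07% of all windows tested passed (1.39% higher and 0.672% lower). Inside genes 9 of 311 windows passed (6 higher and 3 lower, 2.89%) and outside genes 6 of 98 (5 higher and 1 lower, 6.12%). Of the CpG-dense windows near gene starts 73 of 5757 passed (1.27%). The shares inside and outside genes were not tested against each other. At an unadjusted p under 0.05 there were 94 of the 409 windows (23.0%, 60 higher and 34 lower) and 17.1% of all windows. The 409 windows held a median of 18 shared cytosines, and all windows a median of 4. Their median control SDs were 0.0358 and 0.0688. Shares of the 409 and of all windows therefore do not compare like with like. The CpG-dense windows near gene starts had a median control beta value of 0.00659 and a median control SD of 0.00834. Their share is thus not a like comparison with the 409 either. The effects of cytosine number, level and spread on these shares were not tested.

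By a count that uses no model, all 5 experimental values lay above all 6 control values in 32 windows (7.82%), against 3.05% of all windows, and below them in 18 windows (4.40%), against 1.65%. The same limit holds for these shares, since all windows held fewer cytosines and varied more between control libraries. Of the 15 windows that passed, 14 had values that did not overlap between the lines, and 36 further windows without overlap did not pass.

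The count of 15 depended on single libraries. Without 1 control library it was 12 (day 0), 8 (day 5), 9 (day 9), 8 (day 16) or 7 (day 20). Without 1 experimental library it was 9 (day 5), 10 (day 9), 7 (day 12), 7 (day 16) or 7 (day 20). Without the sparse control day 12 it was 19 (10 inside and 9 outside genes). The share over all windows moved as well, from 2.07% to 2.43% without control day 12 and to between 0.920% and 1.53% in the other fits. Fitted directly on beta values 40 windows passed, 24 higher and 16 lower, with 3.94% of all windows. With day as a replicate block and control day 0 left out, 0 of the 409 and 0 of all windows passed. The same libraries without the block gave 12 of the 409 and 1.53% of all windows.

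The largest difference was in Ebf3, which encodes a transcription factor of neural and muscle development. The window chr7:137309001-137309500 lay 5.20 kb from the Ebf3 start, 10.5% along the gene. Its control values ran from 0.484 to 0.894 with a median of 0.731, and the experimental values on days 5, 9, 12, 16 and 20 were 0.00658, 0.123, 0.292, 0.137 and 0.298. All experimental values were below all control values, and both lines varied widely between days. The limma coefficient was -4.28 on the M scale (SE 0.87, adjusted p = 0.0326), and when each of the 11 libraries was left out in turn the call was kept 3 times. Both neighbouring windows towards the gene start, CpG-dense but within 5 kb of it, passed in the same direction. The nearer had 0.540 ± 0.0750 (SD, n = 6) in the control line and 0.109 ± 0.0874 (SD, n = 5) in the experimental line (limma adjusted p = 0.0109), and the next had 0.294 ± 0.0570 (SD, n = 6) and 0.0499 ± 0.0430 (SD, n = 5) (limma adjusted p = 0.00972).

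Acvr2b, which encodes a type 2 receptor for activin and myostatin, held the other named window inside a gene that was lower in the experimental line. At chr9:119418001-119418500, 41.1% along the gene and 16.1 kb from its start, control values ran from 0.595 to 0.809 with a median of 0.698. The experimental values were 0.375, 0.400, 0.361, 0.368 and 0.318 in order of day. The experimental values were close together and well below the control range (M-value coefficient -2.02, SE 0.34, limma adjusted p = 0.0178). This call was kept without any 1 library. The third lower window, in Gm5134 at chr10:75969501-75970000, was outside the rule for naming, because the lines did not differ in the same direction on every day, and is named here after its values were seen. It had 0.933 ± 0.0358 (SD, n = 6) in the control line and 0.805 ± 0.0580 (SD, n = 5) in the experimental line, its values overlapped, and its limma adjusted p was 0.0494.

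The 6 windows inside genes that were higher in the experimental line lay in Tspan4, Fam171a2, Nyap1, Bicdl2, Hsbp1l1 and Auts2. Tspan4 encodes a tetraspanin of the cell membrane. At chr7:141482001-141482500, 38.6% along the gene, control values ran from 0.240 to 0.365 with a median of 0.326, and experimental values were 0.671, 0.589, 0.691, 0.622 and 0.538. The lowest experimental value exceeded the highest control value by more than either group's SD, which were 0.0518 and 0.0619. The coefficient was 1.86 on the M scale (SE 0.30, limma adjusted p = 0.0147).

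In Fam171a2, 92.8% along the gene at chr11:102437501-102438000, control values ran from 0.568 to 0.816 with a median of 0.707, and experimental values were 0.936, 0.986, 0.983, 0.960 and 0.985. Methylation of this window was thus partial in the control line and nearly complete in the experimental line (coefficient 3.49, SE 0.43, limma adjusted p = 0.00650, the smallest of the 15). In Nyap1, whose product is a neuronal phosphoprotein that binds phosphoinositide 3-kinase, control values at chr5:137731501-137732000 ran from 0.524 to 0.655 with a median of 0.608. The experimental values were 0.861, 0.874, 0.843, 0.864 and 0.806, all above the control range. The Nyap1 window lay 91.6% along its gene (coefficient 1.84, SE 0.27, limma adjusted p = 0.0106). The Tspan4, Fam171a2 and Nyap1 calls were each kept without any 1 library.

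The other windows of this group had calls that rested on single libraries. In Bicdl2 (chr17:23660501-23661000) the mean was 0.235 ± 0.0446 (SD, n = 6) in the control line and 0.453 ± 0.0631 (SD, n = 5) in the experimental line (limma adjusted p = 0.0381), and the call was kept in 2 of 11 fits without 1 library. In Hsbp1l1 (chr18:80236501-80237000) the means were 0.706 ± 0.104 (SD, n = 6) and 0.916 ± 0.0127 (SD, n = 5) (limma adjusted p = 0.0274), kept in 3 of 11. Auts2, a gene of brain development whose product takes part in a Polycomb complex, had a window 90.9% along its length and 124 kb from the nearest gene start (chr5:131538001-131538500). It went from 0.102 ± 0.0374 (SD, n = 6) to 0.253 ± 0.0375 (SD, n = 5) (limma adjusted p = 0.0372), kept in 2 of 11. In each of these windows no experimental value reached down into the control range.

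**Figure D4:**
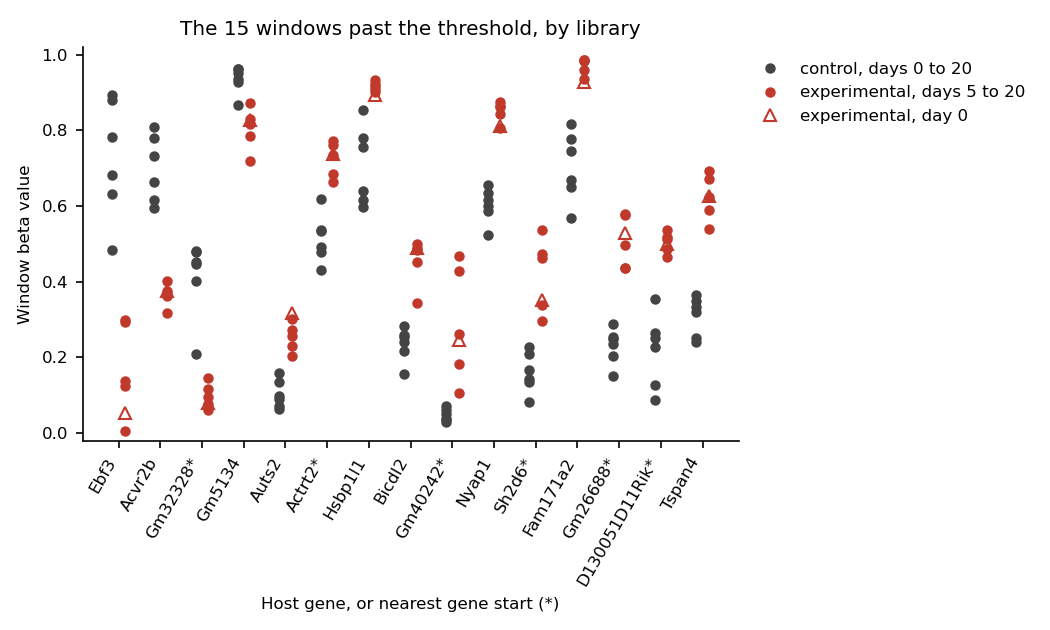
Beta value (vertical axis, no unit) of the 15 windows that passed the test, in each library, ordered by the difference between the lines. Grey points are the 6 control libraries, red points the 5 experimental libraries of days 5 to 20, and open triangles experimental day 0; the horizontal axis names the host gene or, with an asterisk, the gene with the nearest start. The lines do not overlap in 14 windows, Gm5134 being the exception, and each triangle lies outside the control values on the experimental side.

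Outside genes, the single lower window lay 7.30 kb from the start of Gm32328, at chr6:51173501-51174000. Control values ran from 0.210 to 0.481 with a median of 0.449, and experimental values were 0.0762, 0.116, 0.0943, 0.0599 and 0.145. The lowest control value, that of the sparse control day 12, stood apart from the other control libraries at 0.403 to 0.481, and all experimental values were below it. The coefficient was -2.59 (SE 0.39, limma adjusted p = 0.0125), and the call was kept without any 1 library, control day 12 included. The adjacent window, with 9 cytosines and so not CpG-dense by this definition, was lower too, with 0.741 ± 0.0761 (SD, n = 6) and 0.408 ± 0.0443 (SD, n = 5) (limma adjusted p = 0.0148).

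The 5 higher windows outside genes had their nearest gene starts at Gm26688, D130051D11Rik, Sh2d6, Gm40242 and Actrt2. Near Gm26688 (chr13:40704001-40704500, 23.6 kb away) control values ran from 0.151 to 0.288 with a median of 0.242, and experimental values were 0.576, 0.497, 0.579, 0.436 and 0.435. The lines were well separated, and this was the only window of these 5 whose call was kept without any 1 library (coefficient 1.75, SE 0.31, limma adjusted p = 0.0211). Near Gm40242 (chr4:124277501-124278000, 5.34 kb away) control values ran from 0.0281 to 0.0713 with a median of 0.0439, and experimental values were 0.182, 0.467, 0.105, 0.262 and 0.428. This window was almost unmethylated in each control library and varied more between experimental days than any other of the 11 higher windows, with an SD of 0.156 (limma adjusted p = 0.0256, kept in 7 of 11 fits).

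Near D130051D11Rik (chr15:85646001-85646500, 11.7 kb away) the means were 0.218 ± 0.0973 (SD, n = 6) and 0.504 ± 0.0282 (SD, n = 5), and the limma adjusted p of 0.0426 was kept under 0.05 in 2 of 11 fits without 1 library. Near Sh2d6, which encodes an SH2 domain protein (chr6:72512501-72513000, 7.29 kb away), the means were 0.160 ± 0.0532 (SD, n = 6) and 0.422 ± 0.101 (SD, n = 5) (limma adjusted p = 0.0326, kept in 5 of 11). Near Actrt2, an actin-related gene of the testis (chr4:154710001-154710500, 42.4 kb away), they were 0.515 ± 0.0641 (SD, n = 6) and 0.723 ± 0.0480 (SD, n = 5) (limma adjusted p = 0.0499), and this call was kept in none of the 11.

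Neighbouring windows mostly had the same direction. Within 1000 bp of 7 of the 15 windows lay 14 other tested windows, and 13 of them differed in the same direction. Of these, 7 had an unadjusted limma p under 0.05 and 3 were past the threshold, 2 at Ebf3 and 1 near Gm32328. Over all windows tested the shares were 17.1% and 2.07%. Several neighbours lay beside the same window, at Fam171a2, Auts2, Ebf3 and Bicdl2, so the 14 are not independent. The exception in direction, beside the Nyap1 window, had 0.958 in the control line and 0.953 in the experimental line.

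Differences of more than 0.2 in mean beta value were found in 24 of the 409 windows, and in 4612 of all 73824 windows. The median size of the difference was 0.0263 over the 409 windows and 0.0376 over all windows. Of the 24 windows, 13 passed the test. The other 11 had limma adjusted p-values from 0.0517 to 0.170, and a median pooled SD of 0.0996 against 0.0687 for the 13. Among them were windows in Sobp (0.890 ± 0.0655, SD, n = 6, in the control line and 0.619 ± 0.159, SD, n = 5, in the experimental line), in Trps1, which encodes a GATA-type repressor (0.439 ± 0.191 and 0.140 ± 0.0757), in the T-box gene Tbx3 (0.436 ± 0.178 and 0.707 ± 0.113), and outside genes nearest the zinc finger gene Sp9 (0.371 ± 0.122 and 0.628 ± 0.0606). The values of the lines did not overlap in the Trps1 and Sp9 windows and overlapped in the Sobp and Tbx3 windows.

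Differences in the same direction were already present on day 0. Experimental day 0 was not used in the test, and in 15 of the 15 windows that passed, it differed from control day 0 in the direction of the later difference, by 0.114 to 0.826. In each of the 15 it also lay outside the range of the 6 control libraries on the experimental side, and in 12 of them it lay within the range of the later experimental libraries. Control day 0 was 1 of the 6 control libraries behind these calls, so the counts are partly fixed by the choice of windows. When control day 0 was left out of the fit as well, 12 windows passed, and 11 of them differed at day 0 in the direction of the difference between the later libraries. Among all 409 windows, 150 had experimental day 0 outside the control range in the direction of the later difference. The same count was not made over all windows, so it does not set the 409 apart. At day 0 the experimental mean was 0.00746 above control day 0 over all windows and 0.00391 above it over the 409.

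At Ebf3 the day 0 values were 0.880 in the control line and 0.0540 in the experimental line, a wider gap than the later mean difference of -0.52 on days 5 to 20. At Tspan4 they were 0.319 and 0.625, with a difference of 0.307 at day 0 and 0.315 later. At Hsbp1l1, with the smallest day 0 difference of the 15, they were 0.780 and 0.894. Between day 0 and the mean of days 5 to 20, the experimental line moved by between -0.0656 (Auts2) and 0.117 (Ebf3) in these windows, with a median size of 0.0236, and the control line by a median size of 0.0577. In 15 of 15 windows the experimental line moved by less than the gap present at day 0, and in 9 of 15 the later gap was the wider.

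Over the 409 windows, the difference at day 0 and the mean difference on days 5 to 20 had a Pearson correlation of 0.715 (0.674 over the 311 inside and 0.814 over the 98 outside genes). The 2 differences share no library, but the points share the same 12 libraries and are not independent replicates, so this is a description. Of the 61 windows with a later difference of more than 0.1 in size, 55 had the same sign at day 0, and 44 of these differed by more than 0.1 at day 0 as well. Neither the correlation nor these counts were computed over all windows, so they are not shown to be particular to the 409.

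**Figure D5:**
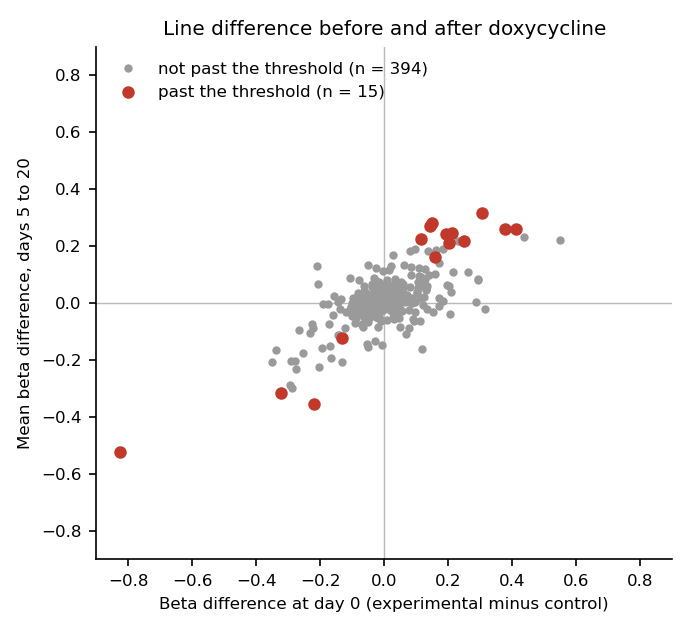
Difference in beta value between the lines (experimental minus control, no unit) at day 0 (horizontal axis) and as the mean of days 5 to 20 (vertical axis), with 1 point per window. Red points are the 15 windows that passed the test and grey points the others. Both differences have the same sign in each of the red points, and the farthest from 0 is Ebf3, at -0.826 and -0.523.

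Whether the lines moved apart with days of doxycycline was tested as a difference in slope over all 12 libraries. No window of the 409 passed, and none of the 73345 did (0%, limma with Benjamini-Hochberg adjustment). An unadjusted p under 0.05 was found for 15 of the 409 windows (3.67%) and for 2976 of all windows tested (4.06%). The SE of the slope difference was 0.0361 to 0.153 M per day over the 409 windows, with a median of 0.0577, so that failing the test does not show that the lines kept their distance.

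The smallest slope p among the 409 belonged to a window outside genes 5.37 kb from Six6, a homeobox gene of eye and pituitary development (chr12:72945001-72945500). In the experimental line it had 0.141 at day 0 and then 0.0791, 0.126, 0.0607, 0.0354 and 0.00429. Control values ran from 0.0512 on day 0 to 0.206 on day 9, with a median of 0.0952. The slope difference was -0.19 M per day (SE 0.0638), with an unadjusted p of 0.0115 and a limma adjusted p of 1.00, and the lines compared by group mean did not pass either (adjusted p = 0.431).

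Of the 409 windows, 56 were inside or nearest to a gene of 10 lists and 353 were in none. Beside the counts below, 2.07% of all windows passed the test and 17.1% had an unadjusted p under 0.05, and with so few windows per list a count of 0 is no sign of a difference from that share. The list of homeobox transcription factor genes does not hold the whole family, and Uncx, Otp and Meox1, which also had windows, are outside it. Its genes had 15 windows at 12 genes, among them En1, Lhx5 and Onecut2, of which 11 had a control mean below 0.2 and 0 passed the test (4 had an unadjusted p under 0.05), with differences from -0.14 to 0.0857. The median difference of these 15 windows was -0.0047, against 0.00388 over the 409 and 0.00324 over all windows.

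The list of other developmental transcription factors, including Pax6, Runx2, Nfix and Gata4, had 25 windows at 18 genes, with 14 below 0.2, 8 between 0.2 and 0.8 and 3 above 0.8. Of these 25, 1 passed the test, the lower Ebf3 window, and the median difference was 0.00587. The 6 windows of Wnt signalling genes (Apc2, Prickle1, Wnt10a and Wnt3) had a median control beta value of 0.647 and differences from -0.22 to 0.0624, with 0 past the threshold and 1 with an unadjusted p under 0.05.

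Calcium and potassium channel genes (Cacna1i, Cacna2d2 and Hcn2) had 4 windows, 3 of them above 0.8 in the control line, and 0 passed (1 with an unadjusted p under 0.05). The 2 windows of matrix genes (Col8a2 and Fbln2), the 2 of receptor tyrosine kinase genes (Ephb3 and Fgfr3), the 2 of Cxxc5 from the list of DNA methylation enzymes and cofactors, and the 3 of Prdm11, Prdm12 and Prdm13 from the list of histone methylation enzymes had none past the threshold, with 1, 1, 0 and 0 at an unadjusted p under 0.05. The lists overlap, and the 3 Prdm windows are also counted among the 25 of the other developmental transcription factors. Imprinted genes and clustered protocadherin genes had 0 windows. The other 14 windows that passed the test belonged to no list.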

How the data were processed

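RRBS libraries numbered 12. The authors aligned reads to mm10 with Bismark (version not given in the sources used here) and deposited percent methylation per CpG cytosine, without read counts; the filters they later applied in RnBeads are not part of these values. Here the percent was divided by 100 (beta value) and averaged over the cytosines of each 500-bp window listed in all 12 libraries (606488 on the autosomes), so both strands of a CpG count and a cytosine read once weighs as much as one read often. Gene spans came from RefSeq GRCm38.p6, the assembly of mm10. Gene strand came from RefSeq promoter entries or, by symbol, from GENCODE, and for the 13497 of 47038 genes without a strand both ends were taken as possible starts. Exons, introns and window sequences of this build were not used here.

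M-values, log2((beta + 0.01)/(1 - beta + 0.01)), of 73345 windows with at least 3 shared cytosines and values not constant were fitted in limma 3.58.1 (R 4.3.3), with 6 control against 5 experimental libraries (days 5 to 20), after the authors' own grouping, and, in a second fit, line, day and their interaction over 12 libraries. Tests were two-sided with Benjamini-Hochberg adjustment at 0.05. The windows named were those past the threshold with the same direction on days 5, 9, 12, 16 and 20, up to 6 in each direction inside and outside genes, and at most 2 per host gene or 10 kb; the window of a gene list with the largest difference where that list had a window past the threshold; and, where no slope passed, the smallest slope p. Windows and lists were chosen with earlier results of these data known. The alternatives were other offsets, beta values, other window limits and sets of libraries, other priors, and day as a replicate block. Summaries and plots used Python 3.11.15, pandas 2.3.3 and matplotlib 3.10.9.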

Additional observations from a re-analysis of the deposited data

Results flagged for a closer look

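In the window near Gm32328, control day 12 had a beta value of 0.210, far from the other control libraries at 0.403 to 0.481. Near Six6, control day 9 had 0.206, far from the other control libraries at 0.0512 to 0.104. These were the 2 found among 34 groups of values checked for a single distant library, and chance gives about 1 in 20.

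Near Six6 the lines moved in opposite directions after day 0: the mean of days 5 to 20 minus day 0 was -0.0803 in the experimental line and 0.0648 in the control line, a difference of -0.145. This difference of changes was not tested as such, and the slope test over all 12 libraries did not pass.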

How the results depend on the processing

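The 15 windows past the threshold (9 inside and 6 outside genes) became 39 (25 and 14, with 24 higher and 15 lower against 11 and 4) with an M-value offset of 0.05, 3 (2 and 1) with 0.001, 40 (25 and 15, with 24 higher and 16 lower) on beta values, 41 (28 and 13, with 27 higher and 14 lower) when only windows with 15 or more cytosines were fitted, and 32 (19 and 13, with 20 higher and 12 lower) with experimental day 0 added to its line. Over all windows tested the share past the threshold moved the same way, from 2.07% to 3.96% and 0.521% with these offsets, 3.94% on beta values and 3.63% with day 0 added; in the fit of CpG-dense windows alone 2.97% of 6166 passed. Beyond 10 kb from a gene start 7 (4 and 3) of 231 windows passed, beyond 2 kb 30 (22 inside genes) of 644, and 3 (2 and 1) of the 152 windows with 20 or more cytosines. These limits only change which windows are counted, and 2.07% of all windows passed in that fit. With day as a replicate block, in a fit that also left out control day 0, 0 (0 and 0) passed, and 0% of all windows. For M-values of the CpG-dense windows, each library's deviation from its own line's mean over days 5 to 20 was taken. These deviations correlated between same-day libraries at -0.0325 to 0.0107, so no pairing by day was detectable, beyond the shared length of treatment. Leaving out 1 library gave 7 to 19 windows (4 to 10 inside and 2 to 9 outside genes), a mean difference of 0.00576 to 0.00935 and 0 to 0 slopes. Of all windows, 0.920% to 2.43% passed between the lines in these fits. With a trended, robust prior 11 passed (1.92% of all windows), without constant cytosines 10 (1.63%) and with control days 5 to 20 only 12 (1.53%). Chosen after seeing the data, with starts of genes of known strand only, 16 of 550 passed. The cause of these changes was not tested. None of the 14 named windows changed direction in any of 280 refits. The values of the lines overlapped in none of these 14 windows, so no refit could turn the direction, and this is no test of it. Control days 5 to 20 only and leaving out control day 0 are the same fit, counted under both names. In 101 of the 280 refits the window no longer passed the threshold. Unknown read depth limits all single values.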
